A study of Mus musculus with 15 samples.

Results

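The genes described here are the replication-dependent core histone genes of the mouse, which were taken by symbol: every gene whose name began with H2ac, H2bc, H3c or H4c followed by a digit. The rule found 64 of the 55416 genes counted, 62 annotated as protein coding and 2 as pseudogenes, with 20 genes in the H2A family, 19 in H2B, 12 in H3 and 13 in H4. RNA was sequenced from whole blood drawn at the cheek of 15 mice, with 1 library per mouse and 5 mice in each of 3 groups. The study concerned αCTLA-4, an antibody that blocks an inhibitory receptor of T cells, and neck dissection (ND), the surgical removal of the cervical lymph nodes that drain the tongue, performed either early or late relative to the antibody. Per the methods and labels, the mice were female C57Bl/6 animals aged 4 to 6 weeks that carried 4MOSC1 tumours in the tongue, 4MOSC1 being a line of mouse oral squamous carcinoma cells. The early ND group received 2 doses of αCTLA-4 with ND on day 6, and the late ND group received the same 2 doses with ND on day 11. The untreated group had neither antibody nor surgery, and the methods do not describe these mice further. The study's results text places the blood draw after the late ND, before tumour volumes had diverged. The labels give 10 days of tumour growth for all 3 groups, and a figure legend of the study also places the sequencing at day 10. That comes before an ND on day 11, so by those days the late ND mice had not yet had surgery when bled. This conflict in days is unresolved. Late ND and untreated mice differed in the antibody and, by the results text, also in surgery. The share of each cannot be told apart.

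Core histones H2A, H2B, H3 and H4 form the protein spool of the nucleosome, around which DNA is wound. Cells make most of their core histone while they copy their DNA in S phase, from many small clustered genes, most without introns, whose mRNAs end in a conserved stem-loop in place of a poly(A) tail. The stem-loop is bound by the protein SLBP, which takes part in the processing, translation and decay of these mRNAs. In blood, most red cells, neutrophils and resting lymphocytes are not dividing.

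The genes lay in 4 places of the GRCm39 assembly. Chromosome 13 held 50 of them between bases 21899933 and 24118834, chromosome 3 held 10, chromosome 11 held 3 and chromosome 6 held 1. The chromosome 13 genes took 94.9% of the read pairs counted to the whole set.

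The stem-loops of the best counted genes are shown because they mark where a replication-dependent histone mRNA normally ends, and hence what part of each annotated gene lies past that end. They were read from GRCm39 on the strand of the gene, with the 16 bases of the stem, loop and stem in capitals and 5 bases on each side in lower case:
H2bc4: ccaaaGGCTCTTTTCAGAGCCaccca
H2ac6: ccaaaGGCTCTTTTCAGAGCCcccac
H2bc15: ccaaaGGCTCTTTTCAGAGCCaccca
H3c4: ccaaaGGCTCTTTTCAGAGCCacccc
H4c18: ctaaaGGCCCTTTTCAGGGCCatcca
H4c9: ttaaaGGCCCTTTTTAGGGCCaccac
The H2bc4 stretch is at chr13:23868625-23868650 on the plus strand, that of H2ac6 at chr13:23867455-23867480 on the minus strand, that of H2bc15 at chr13:21938698-21938723 on the plus strand, that of H3c4 at chr13:23760413-23760438 on the plus strand, that of H4c18 at chr13:22015963-22015988 on the minus strand and that of H4c9 at chr13:22225131-22225156 on the minus strand. The search asked for a stem of 6 bases beginning GG, a loop of 4 bases beginning TT, and an exact complement of the stem, within 200 bases after the coding end. It found such a stem-loop in 58 of the 62 coding members. By this pattern none was found in H2bc21, H2ac22, H4c1 and H3c8.

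The stem differed between families. The form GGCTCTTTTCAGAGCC stood in 37 genes, of which 15 were H2A, 14 were H2B and 8 were H3. The 12 H4 genes with a stem-loop had 3 other forms, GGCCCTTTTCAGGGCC in 8 genes, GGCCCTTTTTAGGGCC in 2 and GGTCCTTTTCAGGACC in 2, none of which was seen in another family. Many annotated genes ran on past this point. The annotation of H2bc4 extended 9518 bases of the gene beyond its stem-loop, that of H2ac6 extended 2010 bases, that of H3c4 extended 1422 bases and that of H4c9 extended 330 bases, whereas that of H4c18 ended 31 bases beyond and that of H2bc15 ended before it. The 23 members with more than 100 annotated bases beyond the stem-loop summed to 308 CPM (counts per 1000000 gene counts of a library, averaged over the 15 libraries), the 35 that ended within 100 bases of it summed to 72.1 CPM, and the 4 coding genes without a match summed to 8.83 CPM. Of the 308 CPM, H2bc4 alone held 211. Counts are per gene, so where along a gene its reads lay is unknown. Whether the libraries were made with poly(A) selection or rRNA depletion is not given in the sources used here.

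The promoter of H2ac6, from 250 bases before to 50 bases after the start of the gene, is shown because it holds all 3 motifs searched, and H2ac6 is paired head to head with H2bc4, the member with the most counts. The sequence is from RefSeq on GRCm38.p6, chr13:23683910-23684209 on the minus strand, with matches to the motifs on either strand in capitals:
H2ac6 promoter: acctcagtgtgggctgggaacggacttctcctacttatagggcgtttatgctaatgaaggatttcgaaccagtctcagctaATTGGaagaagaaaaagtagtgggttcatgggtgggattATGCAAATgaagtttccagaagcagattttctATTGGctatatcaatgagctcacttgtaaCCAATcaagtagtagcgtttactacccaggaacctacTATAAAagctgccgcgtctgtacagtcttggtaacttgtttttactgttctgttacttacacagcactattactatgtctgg
The motifs were the octamer ATTTGCAT, the TATA box TATAAA and the CCAAT box CCAAT, none of which contains another. RefSeq rows were matched for 52 members, 1 of them with more than 1 row, giving 53 promoters. The octamer stood in 6 of 17 H2A promoters (35.3%) and 7 of 15 H2B promoters (46.7%), in 0 of 10 H3 and 0 of 11 H4 promoters, and in 1.74% of all 32851 promoters of the same length. CCAAT stood in 100% of the H2A, H2B and H3 promoters, in 27.3% of the H4 promoters and in 37.4% of all promoters. TATAAA was found in 64.7% of H2A, 46.7% of H2B, 40.0% of H3 and 72.7% of H4 promoters, against 13.6% of all.

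The libraries held 5527108 to 13924361 gene counts, of which 1003 to 7212 fell on the core histone genes. Hemoglobin transcripts took 14.9% to 64.1% of gene counts, and the late ND libraries, at 14.9% to 29.3%, all lay below the early ND libraries (38.3% to 64.1%) and the untreated libraries (31.6% to 61.7%). Defining transcripts of B cells, T cells, monocytes and platelets were counted in every library. In 3 libraries (untreated 2, late ND 2 and late ND 3) the 18S ribosomal RNA gene Rn18s-rs5 stood at 766, 313 and 521 CPM, whereas the other 12 libraries held 13402 to 105889 CPM. These 3 are called 18S-poor below. Read pairs with several equally good positions made up 44.1% to 75.2% of pairs in a library and were left out of the gene counts. Their share was 44.1% to 57.9% in late ND, 66.4% to 75.2% in early ND and 64.8% to 73.1% in untreated blood. Late and early ND also did not overlap in gene counts (7849602 to 13924361 and 5527108 to 7182346) or in Rn18s-rs5 (313 to 25967 and 34456 to 47445 CPM). Untreated libraries overlapped late ND in both. The part of these differences in the histone values was not tested.

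A few core histone genes carried most of the signal. Of the 64 genes, 57 had at least 1 count in some library, 18 were counted in every library, and 7 had no count (H2ac1, H2ac10, H2ac14-ps, H2ac18, H2bc1, H2bc14 and H3c14). A total of 0 counts allows up to 3 counts, which is 0.0243 CPM over the 15 libraries together and 0.215 to 0.543 CPM in a single library. Counting error is the only error this limit covers. The 7 genes with a mean of at least 10 CPM took 87.6% of member counts, the 11 genes between 1 and 10 CPM took 10.3%, and the 39 counted genes under 1 CPM took 2.11%.

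**Figure D1:**
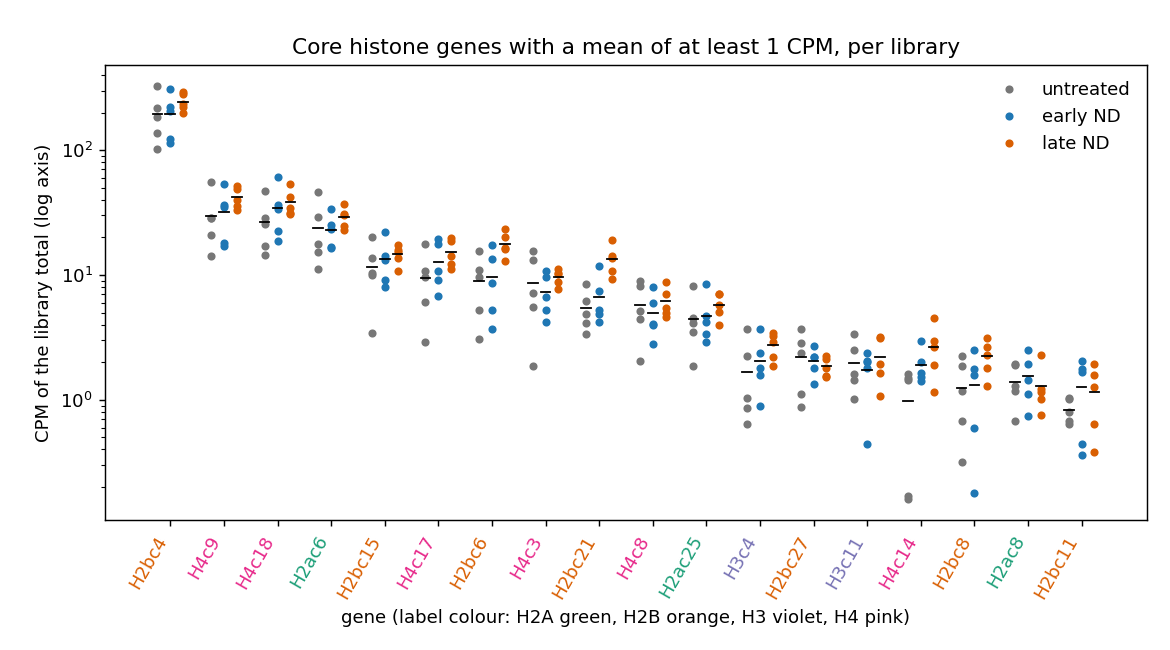
Levels of the core histone genes with a mean of at least 1 CPM, in CPM on a log axis, with 1 point per library, short lines for group means, point colours for the untreated, early ND and late ND groups and label colours for the families. H2bc4 stood highest at a mean of 211 CPM, and on this scale H2bc21 was the only gene whose late ND points all lay above its untreated points.

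H2B genes took 64.5% of member counts, H4 genes 25.1%, H2A genes 8.87% and H3 genes 1.53%. The H2B share was mostly H2bc4 (ENSMUSG00000018102, chr13:23867631-23878163, plus strand), with 53.8% of all member counts. Its annotation holds 5 transcripts and 3088 exon bases, far more than the coding part of a histone gene. Per kilobase of annotated exon the order was different. H4c18 (ENSMUSG00000069305, chr13:22015937-22016366) led at 77.2 CPM per kilobase, followed by H2bc4 at 68.2, H4c9 at 47.4, H2bc15 at 34.5 and H4c17 at 31.0. H2ac6, the H2A gene with the most counts, stood at 10.2 CPM per kilobase, and H3c11, the leading H3 gene on this scale, at 4.79 CPM per kilobase. H2bc4 was thus the largest by counts but not per length.

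The families kept similar shares of the histone signal across libraries, whereas some single genes did not. H2B genes made up 61.6% to 68.5% of member counts across the 15 libraries, H4 genes 21.2% to 27.4%, H2A genes 6.76% to 10.3% and H3 genes 0.980% to 2.69%. H2bc4 alone made up 48.9% to 59.5%. H2bc21 ran from 1.24% to 4.22%, with late ND (2.50% to 4.22%) above early ND (1.24% to 2.27%) and untreated blood (1.37% to 2.39%), and H2bc6 ran from 1.62% to 4.52%. The ratio of H2bc4 to its head-to-head partner H2ac6 ran from 6.87 to 12.04, and the groups overlapped in it. The annotated exons of these 2 genes overlap. In the overlap, reads from opposite strands cannot be told apart if counting ignored strand, and the strand setting is not given in the sources used here.

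Near-identical copies limit what the low counts can say. Of the 150-base stretches (the read length) of each gene's exons, the share found only once in the genome had a median of 73.6% over the 64 members, with family medians of 41.1% for H2A, 89.4% for H2B, 70.7% for H3 and 87.5% for H4. Most exon stretches were unique in H2bc4 (93.5%), H4c9 (97.9%), H2ac6 (94.4%), H2bc6 (98.8%), H4c3 (92.4%) and H2bc21 (100%). They were rarely unique in H4c18 (12.8%) and H4c17 (14.2%), and H2bc15 stood at 65.1%. Levels of H4c18, H4c17 and H2bc15 are therefore uncertain, since reads shared with copies were left out. Among the counted members, 5 had no unique stretch of this length. Other genes overlap H2ac25 on the same strand (71.3% of its exon bases, Trim17 among them), and H4c8 (98.1%) and H2ac19 (100%) on the opposite strand, so their counts may hold reads of those neighbours.

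**Figure D2:**
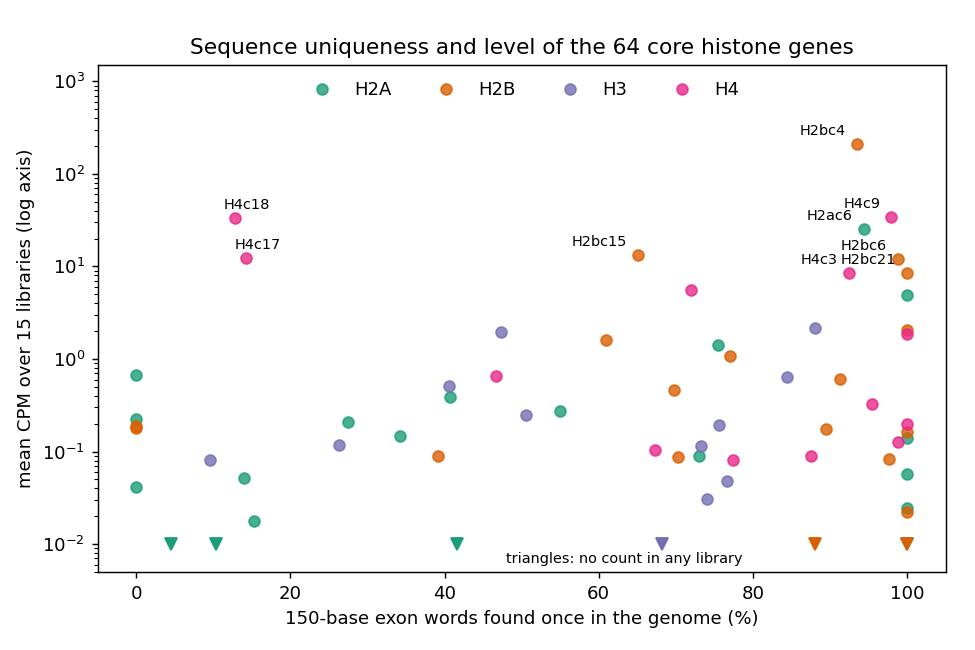
Mean CPM of each core histone gene against the share of its 150-base exon stretches that occur once in the genome, in percent, with a log axis for CPM, colours for the families and triangles for the 7 genes without a count. H2bc4, H4c9 and H2ac6 combine high counts with unique sequence, while H4c18 and H4c17 lie near 13% to 14%.

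In bulk blood, fewer cells of a type and less RNA per cell cannot be told apart, and CPM also moves with whatever else fills the library. Summed over the 64 genes, the untreated libraries held 171, 596, 244, 322 and 390 CPM (mean 345 ± 163, SD, n = 5). The early ND libraries held 578, 229, 387, 222 and 390 CPM (361 ± 146, n = 5), and the late ND libraries 421, 452, 518, 373 and 542 CPM (461 ± 69.4, n = 5). The 3 groups overlapped, with the late ND libraries spanning a narrower range.

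The order of the groups turned with the scale. The edgeR package's trimmed mean (TMM) sets library size from the bulk of the genes, so that a few abundant transcripts weigh little. On TMM-scaled CPM the untreated libraries summed to 410 ± 32.7 (range 369 to 446), the early ND libraries to 422 ± 112 (255 to 542) and the late ND libraries to 294 ± 33.1 (237 to 318). All 5 late ND libraries now lay below all 5 untreated libraries, and they met the early ND range through early ND 2, at 255. With hemoglobin and Rn18s-rs5 simply left out of the library total, the means were 713 ± 109, 747 ± 192 and 599 ± 51.5 CPM for untreated, early ND and late ND. The hemoglobin share was lowest in late ND, and the TMM factors ran from 1.24 to 1.91 there, 0.503 to 1.17 in early ND and 0.426 to 1.34 in untreated blood. What part the hemoglobin share plays in the difference between scales was not tested.

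**Figure D3:**
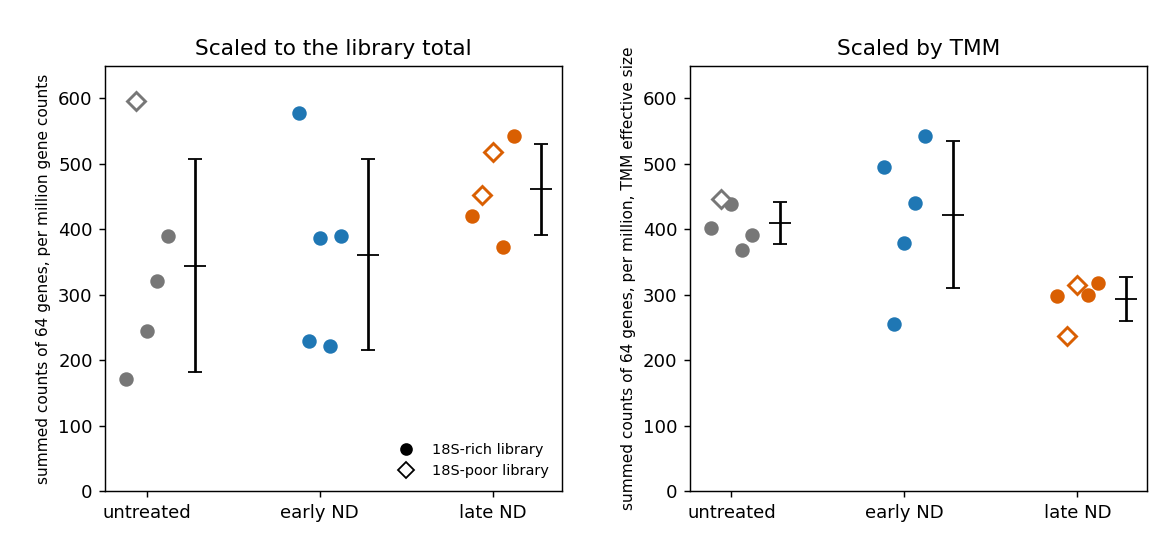
Summed level of the 64 core histone genes in each library, on CPM of the library total and on TMM-scaled CPM, with points for libraries (open diamonds for the 18S-poor ones) and, beside them, the mean with error bars for SD (n = 5 per group). Late ND has the highest mean on the first scale, 461 CPM, and the lowest on the second, 294.

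By the study's results text, the comparison of late with early ND sets 2 schedules of lymph node removal side by side under the same antibody. By the days in the labels and legend, it would set mice not yet operated on beside mice after ND. On the TMM scale most core histone genes had lower values in late ND, with library totals most had higher values, and on the TMM scale none passed the test. Of the 17 members with enough counts, the quasi-likelihood test of edgeR called 0 at a Benjamini-Hochberg adjusted p of 0.05, whereas it called 4.98% of the 13315 genes tested. At an unadjusted p below 0.05, 8 of the 17 members were lower and 0 higher, beside 9.33% of all genes tested that were lower at that level, and DESeq2 called 4 of the 23 members to which it gave an adjusted p lower (H2bc27, H2ac6, H4c18 and H2bc15), beside 9.21% of all genes called in either direction and 4.23% called lower. The members' log2 fold changes had a median of -0.54, with a range of -1.07 to 0.16, against a median of 0.01 over all genes tested. The 47 members outside the test had too few counts and are not described by these numbers.

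Among H2B genes, H2bc4 held 232, 221, 281, 197 and 290 CPM in the late ND libraries and 306, 123, 205, 114 and 221 CPM in the early ND libraries. The ranges overlapped on CPM and also on the TMM scale, where late ND ran from 116 to 171 and early ND from 137 to 307. Its log2 fold change was -0.52 (SE 0.20, edgeR adjusted p = 0.138). H2bc15 had a log2 fold change of -0.69 (SE 0.21, edgeR adjusted p = 0.0703), while H2bc6 and H2bc21 stood at 0.07 (SE 0.27) and 0.16 (SE 0.17). H2bc21, which encodes the variant H2BE known from olfactory neurons, is also among the genes in which the stem-loop pattern was not found.

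Among H4 genes, H4c18 held 34.7, 42.3, 31.1, 30.8 and 54.0 CPM in late ND and 61.0, 22.4, 36.2, 18.8 and 33.7 CPM in early ND. Its log2 fold change on the TMM scale was -0.67 (SE 0.19, edgeR adjusted p = 0.0620), the lowest adjusted p of any member here, with overlapping groups. H4c9, at 33.4 to 51.7 CPM in late and 17.2 to 53.4 CPM in early ND, gave -0.45 (SE 0.21, edgeR adjusted p = 0.218). H4c17 and H4c3 gave -0.61 and -0.46. The H2A gene H2ac6, at 29.1 ± 5.54 and 23.0 ± 7.06 CPM, gave -0.54 (SE 0.16, edgeR adjusted p = 0.0687). H2ac25 also gave -0.54, and the H3 genes H3c11 and H3c4 gave -0.55 and -0.47 with SE of 0.47 and 0.36. Family medians of the log2 fold change lay close together. They were -0.54 for H2A (2 genes tested), -0.52 for H2B (7), -0.51 for H3 (2) and -0.51 for H4 (6). The H2B values ran from -1.07 to 0.16, and the 2 members with positive values were both H2B genes.

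Taking library totals in place of TMM turned these directions. The median over all genes then moved to 0.86 and that of the members to 0.33, which is -0.53 relative to all genes, and H2bc6 (0.88) and H2bc21 (1.00) were called higher in late ND, 2 of 17 members beside 67.0% of all genes called higher. The count of calls also moved with single libraries. Without early ND 2, edgeR called 4 of 18 members lower (H2ac6, H4c18, H4c17 and H2bc15) beside 1.93% of all genes called lower, and without early ND 3 it called 1 of 18 (H4c18) beside 4.04%.

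The comparison of late ND with untreated blood used the same late ND libraries, so the 2 comparisons are not independent. Here edgeR's quasi-likelihood test called 1 of 17 members after Benjamini-Hochberg adjustment, H2bc4, beside 3.0% of the 13547 genes tested. At an unadjusted p below 0.05, 10 members were lower and 0 higher, beside 8.28% of all genes tested that were lower, and the members' median log2 fold change was -0.52 (range -1.33 to 0.56) against 0.00 over all genes.

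H2bc4 fell by 0.57 on the log2 scale with TMM (SE 0.13, edgeR adjusted p = 0.0340), to 0.67 of the untreated level, whereas scaling by library totals gave 0.34, which did not pass. On the TMM scale the untreated libraries stood at 239, 246, 246, 211 and 217 and the late ND libraries at 165, 116, 171, 158 and 170, and the groups did not overlap. It was the only tested member without overlap and lower in late ND, beside 2.98% of all genes tested. On CPM the untreated libraries held 102, 328, 137, 184 and 216 and overlapped the late ND libraries given above. The size of the difference held when single libraries were left out (-0.62 to -0.50 over 10 fits), but the call did not: over 19 alternatives the adjusted p ran from 0.000269 to 0.372 and stayed below 0.05 in 6. Leaving out any of the late ND libraries, or untreated 1, 2, 3 or 4, ended the call (adjusted p 0.0575 to 0.0925), as did the 18S-rich libraries alone (log2 fold change -0.49, adjusted p = 0.178). Without untreated 1 and without untreated 4 the member called was H4c3 and H2ac6 in its place. All genes called then were 0% to 2.48% of those tested in the fits without 1 library that lost H2bc4.

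**Figure D4:**
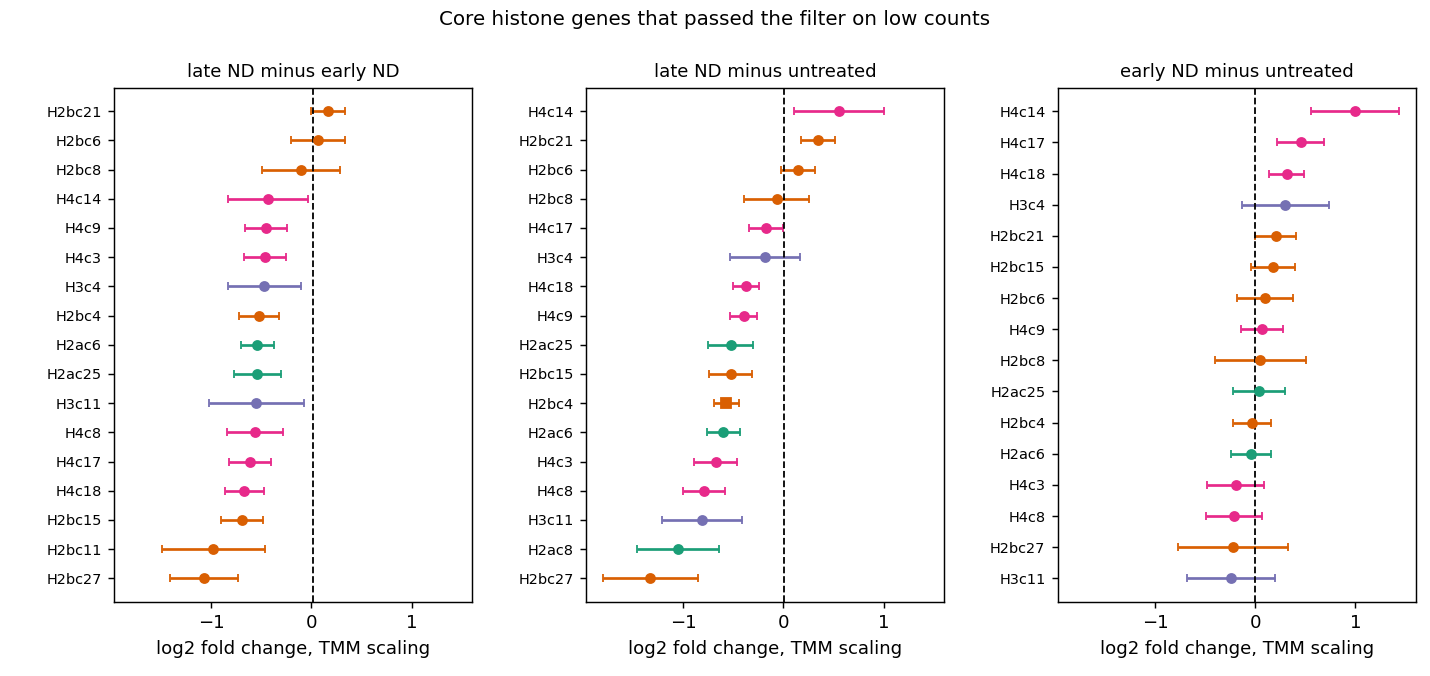
Log2 fold changes of the tested core histone genes on the TMM scale for late ND against early ND, late ND against untreated and early ND against untreated, with error bars for SE, colours for the families, a dashed line at the median of all genes tested and a square for adjusted p below 0.05. Only H2bc4 in late ND against untreated (-0.57) has a square, a value that was 0.34 when libraries were scaled by their totals.

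Of the other H2A genes, H2ac6 stood at 26.0, 34.8, 31.8, 17.5 and 29.4 TMM-scaled CPM in untreated and 17.5, 16.0, 22.4, 18.5 and 17.8 in late ND, with overlap through untreated 4. Its log2 fold change was -0.60 (SE 0.17, edgeR adjusted p = 0.0794). H2ac8 gave -1.05 from a mean of 1.41 CPM (SE 0.41, edgeR adjusted p = 0.207), and H2ac25 gave -0.52. The H4 genes H4c3, H4c9, H4c18 and H4c17 gave -0.68, -0.40, -0.37 and -0.17, with adjusted p of 0.129 and above by the same edgeR test. H4c8 and H4c14, named after their values were seen, lay at the ends of the H4 range. H4c8 gave -0.79 (SE 0.21, edgeR adjusted p = 0.0670) and H4c14 gave 0.56 (SE 0.45, edgeR adjusted p = 0.598). H3c11 and H3c4 gave -0.81 and -0.18. H2bc15 gave -0.53, and H2bc6 and H2bc21 gave 0.15 and 0.35. Thus 14 of 17 members had negative values on the TMM scale and 1 passed, while the median of the members with library totals was 0.37, beside 0.91 for all genes.

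The H2B genes did not move alike. H2bc21 held 10.8, 19.1, 14.1, 9.33 and 13.7 CPM in the late ND libraries and 4.09, 8.52, 3.35, 4.85 and 6.24 CPM in the untreated libraries, and on this scale all late ND values were above all untreated values. That was so for 1 of the 17 members beside 24.9% of all genes tested, and on the TMM scale the H2bc21 groups overlapped. A ratio of 2 genes within a library needs no scaling. H2bc4 had 11.6 to 21.5 counts per H2bc21 count in late ND, 23.7 to 45.5 in early ND and 24.9 to 40.9 in untreated blood, and the late ND range lay below the other two. The ratio of H2bc4 to H2bc6 was 10.9 to 17.9 in late ND, 15.2 to 33.2 in early ND and 19.3 to 33.2 in untreated blood, which overlapped early ND only. Both ratios were chosen after the values were seen and were not tested. Late ND against early ND, 1 member was lower without overlap on the TMM scale, H2bc27 at 1.09 to 1.32 against 1.49 to 5.39, beside 2.93% of all genes tested.

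Early ND and untreated blood were not told apart. Of 16 members tested, edgeR called 0, as it called 0 of all 12151 genes tested (percent called 0), and DESeq2 called 0 members and 1 gene. At an unadjusted p below 0.05, 256 genes were higher and 283 lower, among them 1 member, H4c14, with a log2 fold change of 1.00 (named after its values were seen). The members' median log2 fold change was 0.06. H2bc4, at 194 ± 78.7 CPM in early ND and 193 ± 87.1 CPM in untreated blood, gave -0.03 (SE 0.19).

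Other genes of histone supply were compared in the same fits. The linker histones, which bind DNA between nucleosomes, were represented by H1f2 at a mean of 191 CPM, with log2 fold changes of -0.66 in late against early ND (edgeR adjusted p = 0.104) and -0.61 against untreated blood, and 0 of 2 tested linker genes were called in either comparison. Of 9 replacement variant genes, which are made outside S phase, 0 were called in either comparison. H3f3a gave -0.67 against early ND and -0.80 against untreated blood (edgeR adjusted p = 0.0570), while H3f3b, which encodes the same H3.3 protein, gave 0.02 and -0.01. Of 13 genes of histone mRNA transcription and 3′ end processing, 0 were called, with medians of 0.00 and 0.03. Slbp, whose protein binds the stem-loop, held 13.7 ± 6.82 CPM in untreated, 14.1 ± 3.84 in early ND and 27.3 ± 3.94 in late ND, and its TMM-scale log2 fold change was 0.10 in late against early ND (edgeR adjusted p = 0.631). Of 13 histone chaperones, 1 fell in late against early ND, Rbbp7 (-0.44, edgeR adjusted p = 0.0361), with a value of 0.41 under library totals.

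Genes of the cell cycle gave few calls on the TMM scale, all lower in late ND, and the called genes had negative but not called values under library totals (-0.67 to -0.21 against early ND). Among S phase genes, Rrm2, a subunit of the enzyme that makes deoxyribonucleotides, fell by 1.05 on the log2 scale against early ND (edgeR adjusted p = 0.0327), 1 of 20 tested, with a list median of -0.29. Pcna and Cdk2, the S phase genes with the highest counts, gave -0.14 and 0.15. Against untreated blood, 0 of 21 S phase genes were called by edgeR (4 lower and 2 higher at an unadjusted p below 0.05). Among mitosis genes, Birc5 fell by 1.49 and Ccna2 by 1.48 against early ND (edgeR adjusted p = 0.0126 and 0.0239), 2 of 7 tested with a median of -0.99. Against untreated blood the same genes fell by 1.26 and 1.53 (edgeR adjusted p = 0.0390 and 0.0425), 2 of 8 tested with a median of -0.58. Birc5 encodes survivin and Ccna2 encodes cyclin A2.

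Markers of other cells moved between the same groups. Of 4 erythroid genes, 3 fell in late against early ND and 4 against untreated blood on the TMM scale, with Tfrc at 0.21 against untreated blood under library totals, and their summed level was 3704 to 7153 CPM in late ND, 7931 to 17544 in early ND and 6645 to 15588 in untreated blood. Summed markers of red cell precursors (5 genes, each counted, 3 of them tested) were 20.6 to 31.0 CPM in late ND, 9.60 to 17.1 in early ND and 10.5 to 27.2 in untreated blood, with 0 called by edgeR, and 1 lower at an unadjusted p below 0.05, in each late ND comparison. Of 4 monocyte genes, 1 rose in late against early ND and 2 against untreated blood, with sums of 856 to 1163, 211 to 453 and 131 to 418 CPM in late ND, early ND and untreated blood. Of 6 neutrophil genes, 1 rose against early ND, where all 6 were higher at an unadjusted p below 0.05 (median log2 fold change 1.09), and 0 were called against untreated blood by edgeR, with 0 at an unadjusted p below 0.05. Of the 3 immature neutrophil genes tested, Prtn3 rose against untreated blood (1.61, edgeR adjusted p = 0.0475). The other 2 had negative values there, with a list median of -0.50 and a lowest value of -0.90. Of 5 T cell genes, Cd3g fell against untreated blood on the TMM scale (-0.63, edgeR adjusted p = 0.0274), with a value of 0.28 under library totals, and 4 were lower at an unadjusted p below 0.05, while the summed T cell CPM was 175 to 295 in late ND, 102 to 219 in early ND and 81.2 to 315 in untreated blood. The part of these cell types in the histone values was not tested.

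The 3 libraries with little 18S RNA had a higher mean histone CPM than the other libraries, and a lower mean on the TMM scale. Summed histone CPM was 596 in untreated 2, 452 in late ND 2 and 518 in late ND 3 (522 ± 72.1, n = 3), against 356 ± 126 in the other 12 (range 171 to 578). The late ND values lay within that range, and that of untreated 2 lay above it. On the TMM scale the sums were 333 ± 106 and 386 ± 85.0, and with hemoglobin and Rn18s-rs5 left out of the total 688 ± 167 and 686 ± 138 CPM. Hemoglobin took 17.5% to 31.6% of gene counts in the 18S-poor libraries and 14.9% to 64.1% in the others.

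**Figure D5:**
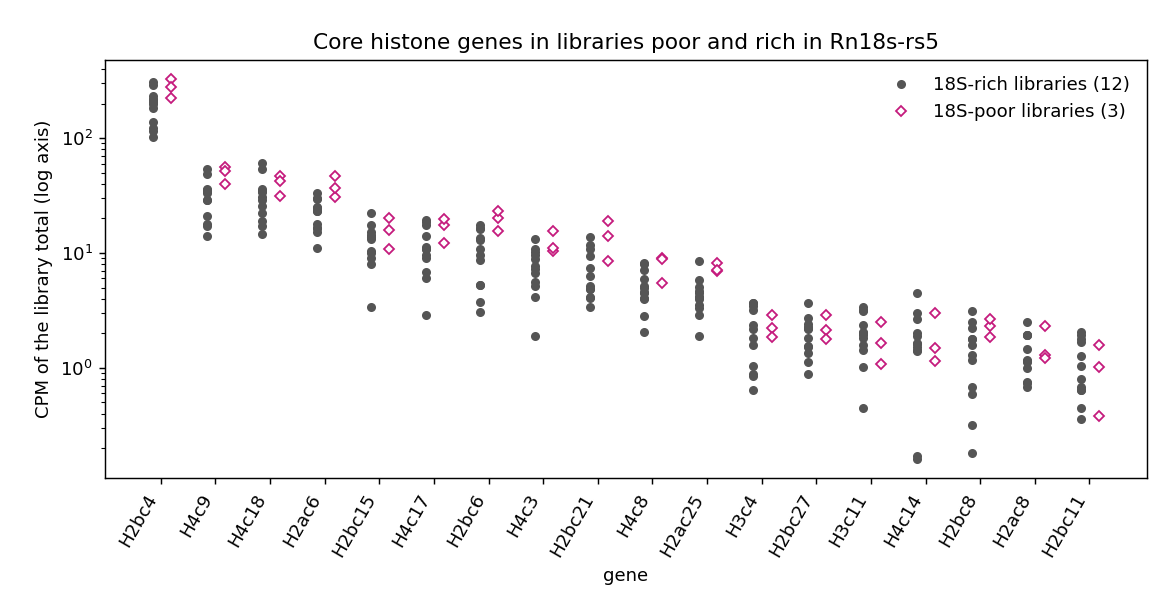
CPM of the core histone genes tested, in the 3 libraries with Rn18s-rs5 below 5000 CPM and the 12 others, on a log axis with 1 point per library (open diamonds for the 18S-poor ones). For 10 of 18 genes all 3 18S-poor libraries fall within the range of the others, and the same count over all genes is not given.

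By gene, 16 of the 18 members had a higher mean CPM in the 18S-poor libraries, and for 10 of the 18 all 3 values lay within the range of the other libraries. The same counts over all genes are not given here, so these counts do not set the members apart from other genes. H2bc4 held 328, 221 and 281 CPM in untreated 2, late ND 2 and late ND 3 (277 ± 53.5) against 194 ± 65.9 CPM in the others. H4c9 held 55.9, 39.7 and 51.7 CPM (49.1 ± 8.42) against 30.8 ± 12.2, and H2ac6 held 46.5, 30.6 and 36.9 CPM (38.0 ± 8.03) against 22.2 ± 6.86. Of the H3 genes, H3c4 stood at 2.33 ± 0.526 against 2.11 ± 1.16 CPM and H3c11 at 1.74 ± 0.720 against 2.03 ± 0.882 CPM, differences smaller than the spread between libraries. In a fit over the 15 libraries with the group as a term, edgeR called 0 of 18 members, beside 0.0341% of the 14647 genes tested. At an unadjusted p below 0.05 there were 0 members, beside 704 genes higher and 857 lower among the 14647. DESeq2 called 0 of 18 members too, beside 0.657% of the 13996 genes to which it gave an adjusted p. The members' log2 fold changes had a median of -0.01, H2bc4 stood at -0.07 (SE 0.20, edgeR adjusted p = 0.948), H4c9 at 0.12, H2ac6 at 0.24 and H3c11 at -0.93 (SE 0.44, edgeR adjusted p = 0.476). When libraries were scaled to their totals instead, the medians were 0.49 for the members and 0.52 for all genes. The 5 genes called were Rn18s-rs5 (-6.47), Lars2 (-5.36), the mitochondrial ribosomal RNA genes mt-Rnr1 (-5.02) and mt-Rnr2 (-4.71), and 1 gene without a symbol (-4.02). Among them Rn18s-rs5 defined the split. No early ND library was 18S-poor, so the split could be read only within the untreated group (1 against 4 libraries) and the late ND group (2 against 3). In late ND, H2bc4 held 221 and 281 CPM in the 18S-poor libraries, inside the 197 to 290 CPM of the other 3. Untreated 2, at 328 CPM, lay above the 102 to 216 CPM of the other 4 untreated libraries. There H4c9 (55.9 against 14.2 to 28.8) and H2ac6 (46.5 against 11.1 to 29.3) also lay above the others. In late ND, H4c9 held 39.7 and 51.7 against 33.4 to 48.9 CPM, and H2ac6 held 30.6 and 36.9 against 23.0 to 30.4 CPM.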

How the data were processed

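RNA from whole mouse blood was sequenced as read pairs of 150 bases, with 5 libraries in each of 3 groups. The authors aligned reads with STAR 2.7.9 to GRCm39 (the labels also name mm10), used SAMtools 1.7, and deposited raw counts of read pairs per Ensembl gene made with HTSeq 0.13.5. The annotation release and strand setting are not given in the sources used here. Symbols and coordinates came from the GENCODE annotation of GRCm39, which held 54749 of 55416 identifiers. Rows without a gene were left out. The 18S limit of 5000 CPM, the members and the gene lists were chosen with earlier results of these data known. Genes named in the text were the 4 members of each family with the highest mean CPM, members called, and in each list the 2 genes with the highest mean CPM and those called. Any other member is named where a count or ratio needs it and was chosen after its values were seen.

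CPM is the count per 1000000 gene counts of a library. Tests used edgeR 4.0.16 in R 4.3.3 (filterByExpr, TMM, quasi-likelihood test, Benjamini-Hochberg over all genes tested, threshold 0.05), on each pair of groups, or on 15 libraries with group and an 18S term. SE is the log2 fold change divided by the square root of F. DESeq2 1.42.0, other scalings, filters and sample sets were alternatives. Tables and sequences were handled with Python 3.11.15, numpy 2.4.6 and pandas 2.3.3. On simulated counts with 200 genes changed by 2 on the log2 scale, edgeR recovered 199 in late against early ND (13315 genes) and 196 in late ND against untreated (13547). It recovered 195 in early ND against untreated (12151) and 195 for the 18S term (14647). False calls numbered 10, 17, 8 and 6 in that order. The changed genes were drawn from well counted ones, and the change was larger than those of the members. The recovery therefore does not tell how often changes of the members' size would be called. No libraries of the same group were duplicates: chi-square per degree of freedom was 15.6 to 323 over 30 pairs within groups. Pairs between groups were not examined. Libraries held 5527108 to 13924361 gene counts.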

Additional observations from a re-analysis of the deposited data

Results flagged for a closer look

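Within groups of 5 libraries, 69 combinations of a member or sum and a group were examined for a single library far from the others, and 2 were marked; chance marks about 1 in 20 such groups. H3c3 was lowest in late ND 4, at 0.274 CPM, where the other late ND libraries held 1.07 to 1.36 CPM. H3c15 was highest in early ND 1, at 1.48 CPM, where the other early ND libraries held 0.157 to 0.297 CPM. Both are H3 genes with means under 1 CPM, so these values rest on few counts.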

How the results depend on the processing

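The number of members called depended on the settings. In late against early ND, where the main count was 0, library totals gave 2 (both higher, beside 68.0% of all genes called), all 15 libraries in 1 fit gave 1 (H4c18, beside 5.58%), DESeq2 gave 4 (beside 9.21%) and leaving out single libraries gave 0 to 4. In late ND against untreated blood, where it was 1, library totals gave 3 (H2bc6, H2bc21 and H4c14, all higher, beside 55.9% of all genes called), no filter on low counts 0 (1.62%), at least 10 counts in every library 2 (H2bc4 and H4c8, 4.59%), all 15 libraries in 1 fit 0 (2.39%), the 18S-rich libraries 0 (0%), DESeq2 4 (H2bc4, H4c3, H4c8 and H2ac6, 5.14%) and leaving out single libraries 0 to 1. In the 18S-rich libraries alone edgeR called 4 of all genes in late against early ND and 0 against untreated blood, with fewer libraries in the fit. Early ND against untreated and the 18S comparison gave 0 members under every alternative run, beside 0% to 0.0247% and 0.0133% to 0.657% of all genes called.

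Replicate numbers are shared by the groups. The deviations of same-numbered libraries correlated over 0.1 in 4 of 5 pairs for late ND and untreated, 1 of 5 for late and early ND and 0 of 5 for early ND and untreated. For late ND and untreated the correlations ran from 0.029 to 0.58 (mean 0.24), so structure shared by same-numbered libraries remains possible there. The main fits did not take the numbers as pairs. With the replicate block, 1 member (H2bc15) was called in late against early ND, beside 3.92% of all genes, and 2 (H2bc4 and H4c8) in late ND against untreated, beside 3.96%.

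The log2 difference in summed CPM was 0.43 in late against early ND, -0.28 with hemoglobin and Rn18s-rs5 out of the total, -0.49 on TMM sizes and 0.28 to 0.63 leaving out single libraries. In late ND against untreated it was 0.53, -0.24, -0.48 and 0.31 to 0.76, and for 18S-poor against 18S-rich libraries 0.63, 0.00014, -0.23 and 0.53 to 0.73. In early ND against untreated it was 0.10, and -0.12 to 0.33 leaving out single libraries.

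With library totals the late against early ND values reversed for H2ac6 (0.34), H2ac25 (0.30), H2bc4 (0.33), H2bc15 (0.13), H3c4 (0.39), H3c11 (0.32), H4c9 (0.39), H4c18 (0.16), H4c17 (0.25) and H4c3 (0.40). Against untreated they reversed for H2ac6 (0.28), H2ac25 (0.37), H2bc4 (0.34), H2bc15 (0.33), H3c4 (0.67), H3c11 (0.11), H4c9 (0.49), H4c18 (0.54), H4c17 (0.68) and H4c3 (0.15). The library totals leave in the shift of all genes given in the report, 0.86 and 0.91. H2bc6 in late against early ND reversed in the 18S-rich libraries (-0.057) and ran from -0.15 to 0.21 leaving out single libraries, and H3c4 against untreated ran from -0.32 to 0.21. H2bc4 in early ND against untreated was 0.0040 with library totals and -0.17 to 0.098 leaving out single libraries. For the 18S comparison H2bc4 was 0.49 with library totals, 0.49 with the replicate block and -0.20 to 0.052 leaving out single libraries. The cause was not tested. Of the values of single genes under an alternative, 506 kept direction and side of the threshold, 23 passed it newly, 12 no longer passed it and 31 reversed.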
